A study of Homo sapiens with 10 samples.

Results

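The histone mark H4R3me2s (arginine 3 of histone H4 dimethylated symmetrically) was examined in 8 protein kinase C (PKC) genes: PRKCA, PRKCB, PRKCD, PRKCE, PRKCH, PRKCI, PRKCQ and PRKCZ. These 8 were taken from the 19970 protein-coding genes on chromosomes 1 to 22 and X, and a peak belonged to a gene when it overlapped its GRCh38 RefSeq span or the 2 kb on either side. The family was chosen by these peak counts, after PRKCA and PRKCE had been seen to hold many peaks in BDNF+Dox cells over Naive cells. The counts are therefore given as a description, without tests. Chromatin immunoprecipitation and sequencing used the human neuroblastoma line SH-SY5Y, which acquires neuronal traits under retinoic acid. Naive cells (n = 3 libraries) received no differentiation treatment. BDNF cells (n = 3) received 10 µM retinoic acid in 3% serum for 6 days, then 50 ng/ml of the neurotrophin BDNF in serum-free medium for 4 days. BDNF+Dox cells (n = 3) had the same treatment and 1 µg/ml doxycycline for 3 days, which induced α-synuclein from a Tet-on system. The growth medium of all groups held 10% serum and zeocin at 300 µg/ml, so serum also differed between Naive and differentiated cells. All were fixed in 1% formaldehyde for 10 minutes. The control of all 9 libraries was 1 Input library of untreated cells, made without antibody. Cells given doxycycline without the α-synuclein system were not analysed here, so the drug and the protein cannot be told apart. Nothing in the labels says that replicates were separate cultures, and expression was not measured, so the identity of the line was not checked by markers.

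PKC enzymes are serine/threonine kinases that carry lipid signals from receptors into the cell. The conventional isoforms, encoded by PRKCA and PRKCB, need calcium and diacylglycerol. The isoforms encoded by PRKCD, PRKCE, PRKCH and PRKCQ respond to diacylglycerol without calcium, and the atypical isoforms of PRKCI and PRKCZ need neither. In neuroblastoma cells the PKCε protein is known for promoting neurite outgrowth, and phorbol esters, which activate PKC, are a classical differentiation stimulus. H4R3me2s is written mainly by PRMT5 and is known chiefly as a mark of repressed promoters.

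The 9 libraries kept between 17164402 and 18928589 reads after duplicates were removed, and the Input 17074000. Fragment lengths were 151 to 178 bp, and the lists held 4536 to 12207 peaks. A peak in these lists was low: its height in the deposited files, divided by the scaling that the file headers give, was a whole number of overlapping fragments for 100% of peaks (within 0.02), with a median of 7 fragments in every library.

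No PKC peak lay on a start site, which is why the promoter sequences of the pair with most peaks are shown. RefSeq promoter windows (250 bases before to 50 after a start, GRCh38.p14) number 13 for the 8 genes. Library peaks overlapped 0 of them, and so did the peaks of the merged comparisons. Across all protein-coding genes, 0.131% of the 22131 promoter windows held a library peak, 0.0361% a peak of BDNF+Dox over BDNF and 0.0226% one of BDNF+Dox over Naive, so nearly all windows were empty. The 250 bases before the start follow for PRKCA (chr17:66302363-66302612, plus strand) and PRKCE (chr2:45651425-45651674, plus strand, inside the annotated span), with the dinucleotide CG in capitals (it reads the same on both strands).
PRKCA: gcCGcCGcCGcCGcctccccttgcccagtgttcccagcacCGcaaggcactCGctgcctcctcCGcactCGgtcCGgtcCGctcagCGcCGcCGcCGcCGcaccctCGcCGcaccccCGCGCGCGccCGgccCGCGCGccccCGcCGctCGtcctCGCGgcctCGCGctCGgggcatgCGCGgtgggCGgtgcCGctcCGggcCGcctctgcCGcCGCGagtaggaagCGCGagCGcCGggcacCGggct
PRKCE: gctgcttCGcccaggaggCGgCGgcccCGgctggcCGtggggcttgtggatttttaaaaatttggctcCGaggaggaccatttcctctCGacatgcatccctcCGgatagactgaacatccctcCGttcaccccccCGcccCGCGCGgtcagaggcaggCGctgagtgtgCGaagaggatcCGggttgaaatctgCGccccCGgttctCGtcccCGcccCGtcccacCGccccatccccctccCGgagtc
The PRKCA stretch holds 47 CG and the PRKCE stretch 23, against a median of 16 over all protein-coding promoters, of which 96.8% hold at least 1. At least as many CG as in PRKCA were found in 0.361% of promoters, and at least as many as in PRKCE in 33%. Over the 13 PKC promoters the count ran from 6 to 47. The library peak nearest to a PKC promoter start lay in PRKCH, in Naive replicate 1, at 61324866 to 61325016 of chromosome 14. It was 3.29 kb from the start at 61321579, which lies inside the annotated span, and 137.5 kb from the gene start. The PRKCH gene start itself had no promoter window. Among narrow peaks of the merged reads the nearest was in PRKCE, 4.54 kb from its start over BDNF and 4.51 kb over Naive. Among broad regions it was in PRKCA over Naive, 4.01 kb from the start.

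Called against Input, the 9 libraries held 38 peaks in the PKC genes, and 6 of the 8 genes had at least 1 (37.3% of all protein-coding genes did, and 90% of those spanning 100 kb or more). PRKCA had 15, PRKCE 11, PRKCH 5, PRKCB 4, PRKCQ 2 and PRKCI 1. PRKCD (31.51 kb) and PRKCI (83.55 kb) span less than 100 kb, so shares of long genes apply to the other members only. PRKCD, which encodes an isoform linked to apoptosis, and PRKCZ had 0 in every library, which says only that no peak was called there. Per length the 8 genes held 1.87 peaks per Mb in an average library, against 2.29 over all protein-coding genes and 2.62 over those of 100 kb or more. The peaks stood on 5 to 10 fragments (median 7), at a fold of 2.53 to 4.92 over local background in the authors' deposited tables, and 0 of 38 had q of 0.05 or less. For a peak of 7 fragments the 95% Poisson interval is 2.81 to 14.4 fragments, which covers counting error only.

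PRKCA spans 508.1 kb of chromosome 17, from 66302613 to 66810743. It had 0, 2 and 1 peaks in Naive replicates 1, 2 and 3, 3, 1 and 1 in the BDNF replicates, and 1, 0 and 6 in the BDNF+Dox replicates. BDNF+Dox replicate 3 was therefore high, and the 3 groups overlapped. The Naive mean was 1 ± 1 (SD, n = 3), the BDNF mean 1.67 ± 1.15 and the BDNF+Dox mean 2.33 ± 3.21, which differ by less than the spread within BDNF+Dox. Without BDNF+Dox replicate 3 the BDNF+Dox mean was 0.5. The tallest PRKCA library peaks, of 10 fragments (95% Poisson interval 4.8 to 18.4), lay at 66628228 to 66628458 in BDNF+Dox replicate 1 and at 66667779 to 66667970 in BDNF+Dox replicate 3.

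PRKCE, on chromosome 2 from 45651279 to 46187990 (536.7 kb), had 1, 2 and 0 peaks in the Naive replicates, 2, 1 and 1 in the BDNF replicates, and 0, 1 and 3 in the BDNF+Dox replicates. The same BDNF+Dox replicate 3 had the highest count, and the groups overlapped again. Means were 1 ± 1 (SD, n = 3), 1.33 ± 0.577 and 1.33 ± 1.53. Without BDNF+Dox replicate 3 the last of these was 0.5. The tallest PRKCE library peak, of 9 fragments and a fold of 4.61, was at 45812072 to 45812299 in BDNF replicate 1.

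PRKCB was the only PKC gene whose counts separated a pair of groups. It lies on chromosome 16 from 23835983 to 24220611 and had 1 peak in each Naive replicate, 0 in each BDNF replicate, and 0, 1 and 0 in the BDNF+Dox replicates. Every Naive library was thus above every BDNF library, a pattern that 0.416% of all protein-coding genes and 2.21% of those of 100 kb or more showed. In the other 5 directions 0 of the 8 PKC genes separated. Among all protein-coding genes, every BDNF+Dox library was above every BDNF library in 0.606% (2.86% of those of 100 kb or more) and above every Naive library in 0.336% (1.61%). Every BDNF library was above every BDNF+Dox library in 0.0751% (0.358%) and above every Naive library in 0.0751% (0.358%), and every Naive library above every BDNF+Dox library in 0.195% (1.01%). These counts entered the choice of the genes, so nothing is read from the PRKCB pattern. The separation rests on single peaks at 3 unrelated places, 23896198 to 23896385, 23998111 to 23998273 and 24203714 to 24203891. The peak of Naive replicate 1 stood on 9 fragments and had the smallest q of all 38, 0.2 in the authors' deposited table, and the others stood on 6.

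PRKCH, which encodes the isoform PKCη on chromosome 14 (61187468 to 61550976), had 1, 0 and 0 peaks in the Naive replicates, 0 in each BDNF replicate, and 2, 0 and 2 in the BDNF+Dox replicates. Means were 0.333 ± 0.577 (SD, n = 3), 0 ± 0 and 1.33 ± 1.15, and BDNF+Dox replicate 2 had as few as every BDNF library, so those groups overlapped. Of the 5 peaks, 2 also lie in the antisense RNA gene PRKCH-AS1, and reads of this assay carry no strand that could assign them. PRKCQ, the isoform of T cell signalling, on chromosome 10 from 6394097 to 6580646, had peaks in BDNF replicates 2 and 3 only among the 9 libraries, 1 in each, of 6 fragments. PRKCI, on chromosome 3 from 170222424 to 170305977, had 1 peak, in Naive replicate 3, also of 6 fragments. A further peak, in Naive replicate 1, lay 7.14 kb outside the PRKCI span and did not count.

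**Figure D1:**
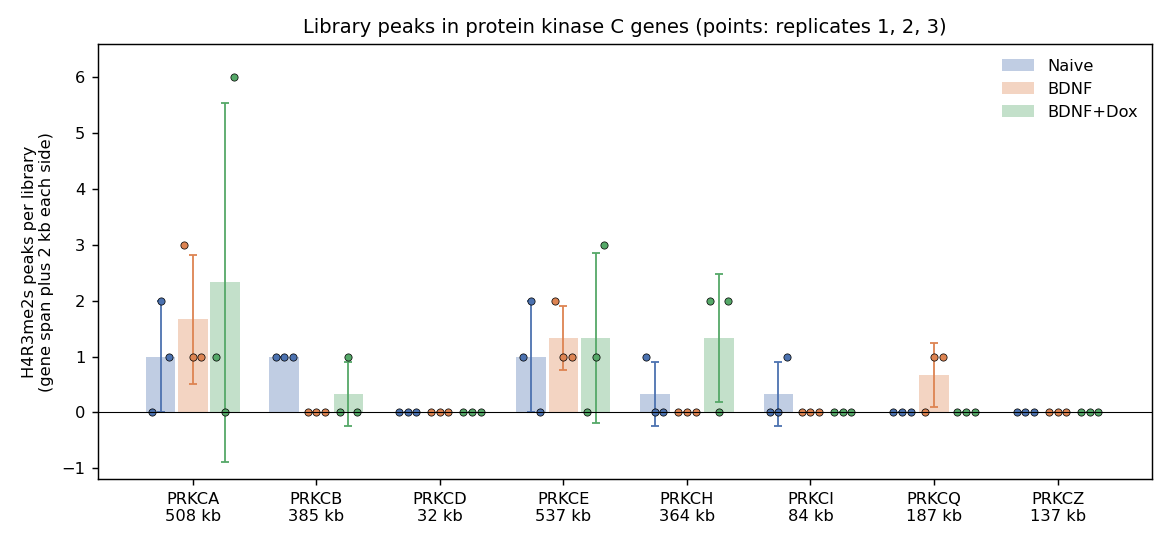
Number of H4R3me2s peaks (vertical axis) in each PKC gene with 2 kb on either side; each point is 1 library, bars are group means and whiskers SD (n = 3), and gene spans in kb stand under the names. The point at 6 for PRKCA is BDNF+Dox replicate 3, and the Naive points of PRKCB at 1 lie above the BDNF points at 0.

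BDNF+Dox replicate 3 carried 11 of the 16 BDNF+Dox peaks in PKC genes, 6 of them in PRKCA, 3 in PRKCE and 2 in PRKCH. These made up 0.174% of that library's peaks (exact 95% binomial interval 0.0871 to 0.312%). The lowest share was 0.0247% (0.0051 to 0.0722%) in Naive replicate 1 and the next highest 0.0856% (0.0278 to 0.2%) in Naive replicate 2. These intervals treat peaks as independent and cover counting error only. The libraries were picked for their shares, in genes chosen by the same counts, so no difference is read from the intervals. The list of BDNF+Dox replicate 3 had 6330 peaks, and those of BDNF+Dox replicates 1 and 2 had 10864 and 6942. Replicate 3 kept 18027832 reads, and its fragment length of 154 bp lay within the range of the others. What made its PKC count high was not tested. Summed over the 8 genes, peaks numbered 3, 5 and 3 in the Naive replicates, 5, 3 and 3 in the BDNF replicates and 3, 2 and 11 in the BDNF+Dox replicates. The means were 3.67 ± 1.15 (SD, n = 3), 3.67 ± 1.15 and 5.33 ± 4.93, and the last was 2.5 without replicate 3. The groups overlapped and differed by less than the spread within BDNF+Dox.

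The 38 library peaks formed 38 separate regions, and 0 of them had a peak in 2 or more libraries. Among the 65632 regions of all libraries 2.37% did, so recurrence was rare everywhere and a count of 0 in 38 is near that share. The closest peaks of different libraries were 2.31 kb apart, in PRKCA, between BDNF+Dox replicate 3 and BDNF replicate 1. In PRKCE the closest pair, BDNF replicates 2 and 3, was 2.5 kb apart, from 45691935 to 45692152 and from 45694649 to 45694895. All 38 peaks lay inside the gene spans. Exons and introns were not told apart, since the annotation used held spans only.

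**Figure D2:**
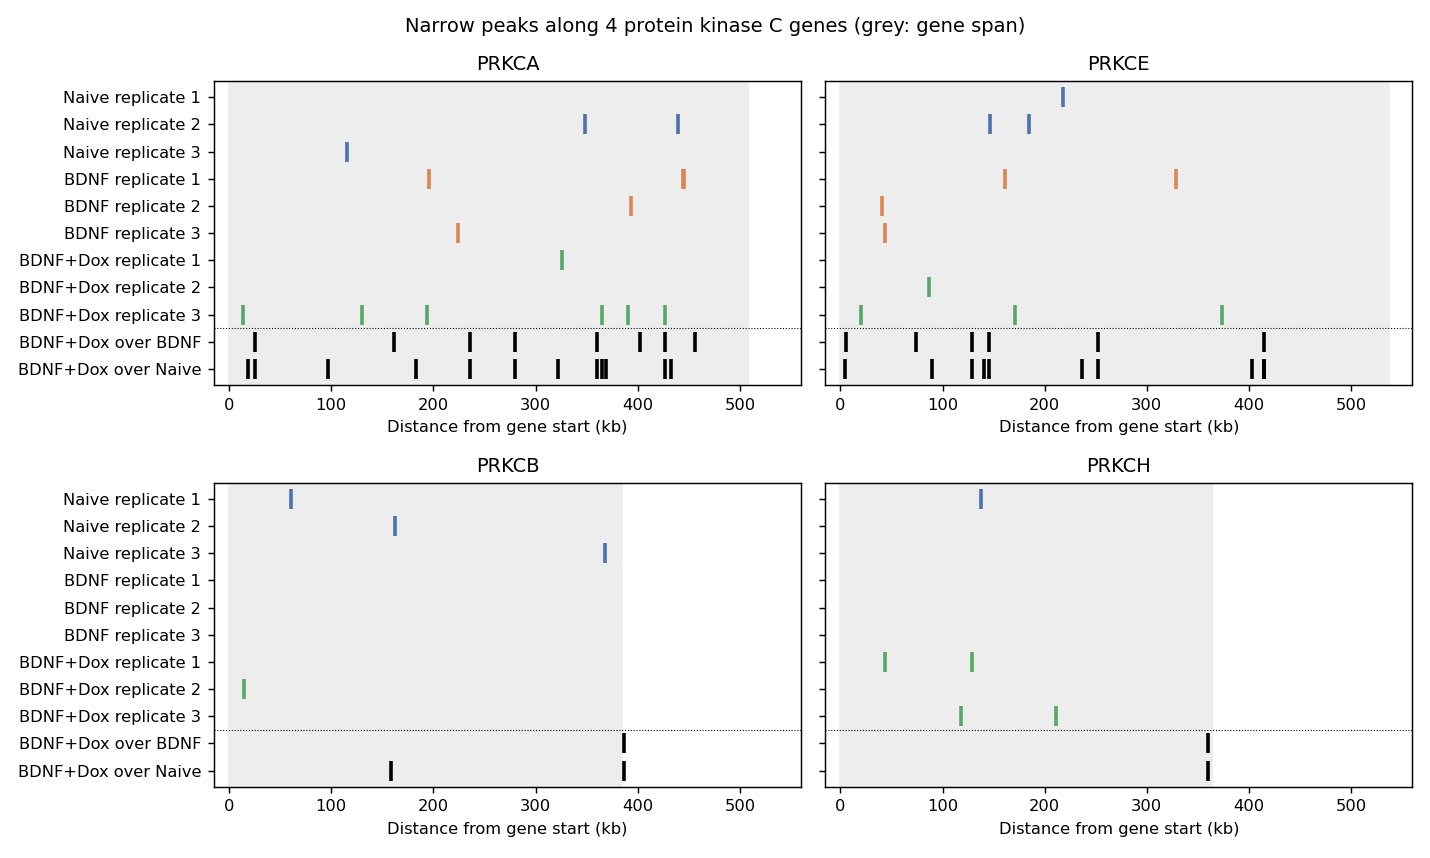
Position of each narrow peak (ticks) as distance from the gene start in kb, for the 9 libraries called against Input and, below the dotted line, the merged BDNF+Dox reads called over BDNF and over Naive; grey marks the gene span. No library peaks overlap between rows (the closest are 2.31 kb apart), and 6 PRKCA ticks are in the row of BDNF+Dox replicate 3.

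The merged BDNF+Dox reads (54723304) were also called directly over merged BDNF reads (52693520) and merged Naive reads (53481523). These lists carry no spread between replicates, share the BDNF+Dox reads, and record places where BDNF+Dox exceeds the control, not the reverse. Over BDNF the PKC genes held 16 narrow peaks, 8 in PRKCA, 6 in PRKCE and 1 each in PRKCB and PRKCH. Over Naive they held 25, with 12 in PRKCA, 10 in PRKCE, 2 in PRKCB and 1 in PRKCH. Thus 4 of the 8 genes had a peak in either comparison, where 14.7% of all protein-coding genes had one over BDNF and 13.1% over Naive, and 51.4% and 44% of those of 100 kb or more. PRKCD, PRKCI, PRKCQ and PRKCZ had 0 in both. Of these, PRKCD and PRKCI span less than 100 kb and are not covered by the shares of long genes.

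PRKCA and PRKCE had the highest densities of the family, which is the property by which they came to notice. PRKCA held 15.6 peaks per Mb over BDNF and 23.4 over Naive, and PRKCE 11.1 and 18.5. All protein-coding genes of 100 kb or more held 3.95 and 3.16 per Mb, and the 6 other PKC genes 1.65 and 2.48. Of the 3351 genes of that length, 14 were denser than PRKCA over Naive and 43 denser than PRKCE, and over BDNF 120 and 275 were. The counts over BDNF rested more on weak peaks: at −log10 p of 3 or more, PRKCA kept 4 of 8 and PRKCE 2 of 6 over BDNF, and 10 of 12 and 8 of 10 over Naive. By library peaks, 957 of those genes were denser than PRKCA and 1562 denser than PRKCE. PRKCB held 2.57 per Mb over BDNF and 5.15 over Naive, and PRKCH 2.72 in each.

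The surroundings of both genes were also rich in peaks. In the 5 Mb on each side of PRKCA the merged lists held 8.5 peaks per Mb over BDNF and 6.7 over Naive, and around PRKCE 6.6 and 6.7. Around PRKCB the values were 1.3 and 2.1, and around PRKCH 3.4 and 2.4. The libraries followed the same order, at 4.01 peaks per Mb on average around PRKCA, 3.76 around PRKCE, 3 around PRKCH and 1.26 around PRKCB. Within the genes themselves the library average was 3.25 per Mb in PRKCA and 2.26 in PRKCE, both lower than in their surroundings. The part of the surroundings in the merged counts was not tested.

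**Figure D3:**
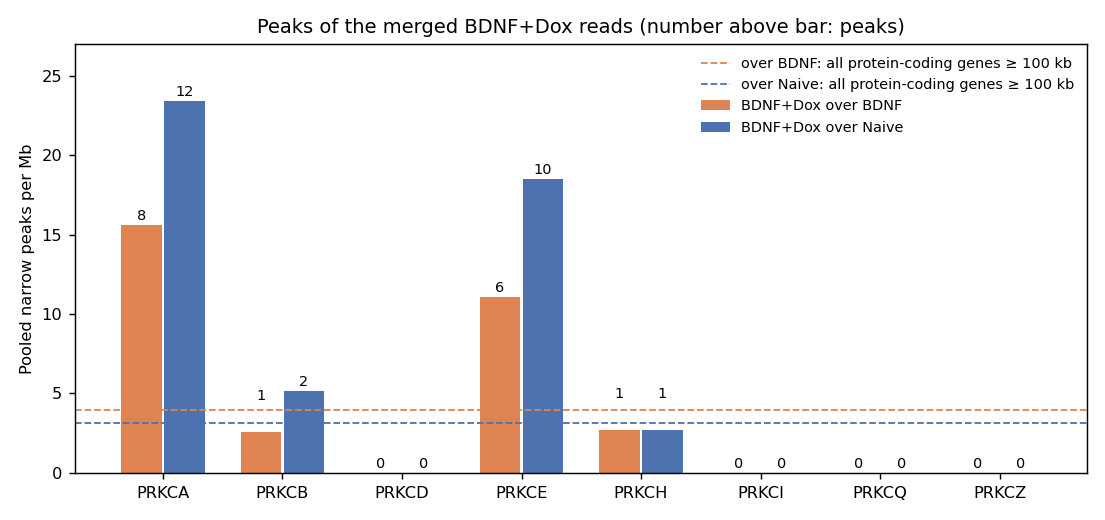
Narrow peaks of merged BDNF+Dox reads per Mb (vertical axis, starting at 0) in the 8 PKC genes, called over BDNF (orange) and over Naive (blue), with the number of peaks above each bar. Dashed lines give the same density over all protein-coding genes of 100 kb or more, 3.95 over BDNF and 3.16 over Naive; the PRKCA bars reach 15.6 and 23.4.

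The strongest merged peaks of PRKCA and PRKCE had the same statistics. In PRKCA the peak with the smallest q over Naive lay at 66327692 to 66327956, 25.21 kb into the gene, and stood on 16 fragments (95% Poisson interval 9.15 to 26). The authors' deposited table gives it a fold of 3.82 and a q of 0.0855. In PRKCE the corresponding peak, at 45796932 to 45797165 and 145.8 kb into the gene, also had 16 fragments, and the authors' deposited table lists the same fold of 3.82 and the same q of 0.0855. For the same places over BDNF, the authors' deposited table lists folds of 3.41 in PRKCA and 3.28 in PRKCE, with q of 0.291 and 0.438. These were the strongest PKC peaks in either list, so 0 of 16 and 0 of 25 had q of 0.05 or less, where 0.822% and 1.01% of all merged peaks did. In the authors' deposited tables q was 1 for 14 of the 16 and for 18 of the 25.

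PKC peaks over BDNF were shallower in fold than the list they came from, and those over Naive were not. By the authors' deposited tables, the median fold was 2.35 over BDNF against 2.77 for that whole list, and 2.84 over Naive against 2.78. Heights were similar, with 10 to 17 fragments and medians of 14.5 and 14, where all peaks of each list had a median of 13. The background that the caller set against them, worked out from height and fold, had a median of 4.46 over BDNF and 3.98 over Naive, where the whole lists had 3.59 and 3.62.

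Since it is worked out from the fold, this background restates the fold on the scale of fragments and is no separate measurement. At places called in both lists the BDNF+Dox fragments are the same reads, and the values stand side by side as follows. At 279.5 kb into PRKCA, 17 fragments met a background of 8 from BDNF and 4.07 from Naive, with folds of 1.93 and 3.47 in the authors' deposited tables. At 360 kb into PRKCA, 15 fragments met 7 from BDNF and 5 from Naive, and at 251.8 kb into PRKCE likewise 15 met 7 and 5. PRKCE at 129.1 kb had 15 fragments against 6 and 4. The order was the other way 5.016 kb into PRKCE, where 16 fragments met 6 from BDNF and 7 from Naive. It was also slightly the other way 414.7 kb into PRKCE, with 11 fragments against 3.86 and 4, and in PRKCH at 61547002 to 61547216, with 11 against 3.18 and 3.23. The PRKCB place lay 1.26 kb past the end of the gene, inside the 2 kb margin, with 12 fragments against 5 and 3.91.

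**Figure D4:**
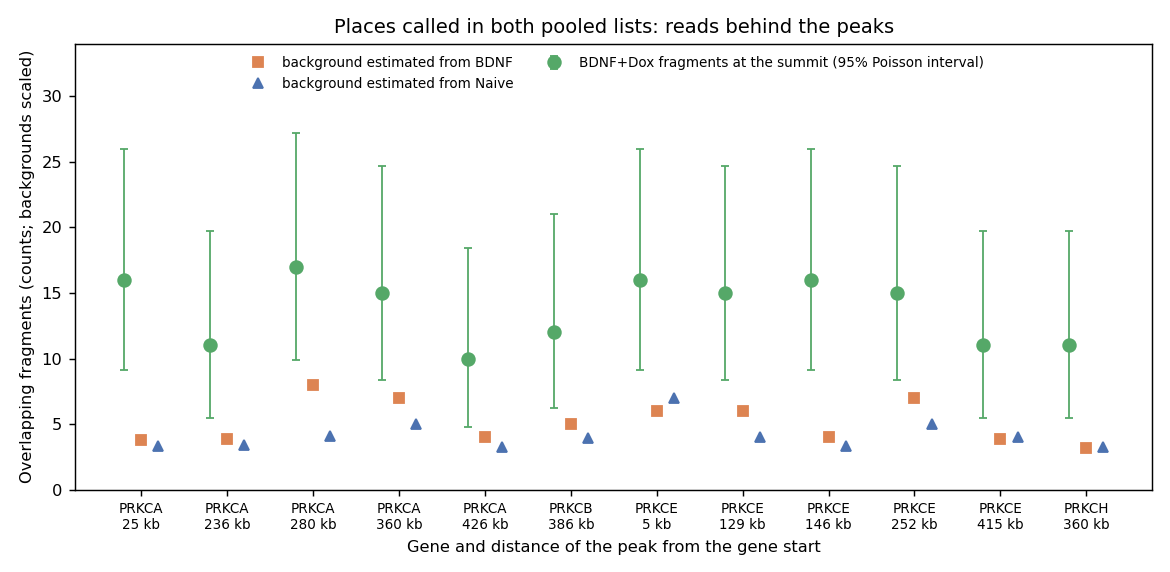
BDNF+Dox fragments overlapping at the summit (circles, whiskers 95% Poisson interval) and the background estimated from merged BDNF (squares) and merged Naive reads (triangles) at the 12 PKC places called in both lists; the horizontal axis names the gene and the distance from its start. Backgrounds are on the scale of the control reads, on which 1 BDNF+Dox fragment counts 0.963 over BDNF and 0.977 over Naive; at PRKCA 280 kb the background is 8 from BDNF and 4.07 from Naive.

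Few merged PKC peaks were seen in a single library. Over BDNF, 1 of the 16 overlapped a peak of any BDNF+Dox library, where 17.9% of all merged peaks did, and over Naive 2 of the 25 (18.3% of all). All of these overlaps were with BDNF+Dox replicate 3 in PRKCA. When at least 50% of the shorter peak had to overlap, 1 was left over BDNF and 1 over Naive. The place at 66728664 to 66728880 over Naive was called in both lists with 10 merged fragments, and the peak of replicate 3 there had 7. The place at 66667773 to 66668110 was called over Naive only, with 12 merged fragments, and the peak of replicate 3 there had 10. In PRKCE, 0 of 6 and 0 of 10 merged peaks overlapped a library peak. In the reverse direction, 2 of the 16 BDNF+Dox library peaks in PKC genes overlapped a narrow merged peak. Of the 25 peaks over Naive, 1 (PRKCA, 66399703 to 66399865) also lay in the antisense gene PRKCA-AS1.

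The broad lists of the same comparisons held more and longer PKC regions, 35 over BDNF and 44 over Naive. PRKCA had 15 and 20, PRKCE 14 and 18, PRKCH 4 and 3, PRKCB 1 and 2, and PRKCI 1 in each. Thus 5 of the 8 genes had a broad region in either comparison, where 25.5% of all protein-coding genes had one over BDNF and 23.7% over Naive, and 74.2% and 70.6% of those of 100 kb or more. Again the shares of long genes do not cover PRKCD and PRKCI. Broad regions covered 0.995% of the PRKCA window over BDNF and 1.27% over Naive, and 0.764% and 1.28% of the PRKCE window. Narrow peaks covered 0.343% and 0.555% of the PRKCA window and 0.229% and 0.39% of the PRKCE window.

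Genes that make, remove or sense diacylglycerol, with PKC anchors and substrates, served as a pathway list of 61 genes. Of these, 21 had a merged narrow peak over BDNF (14.7% of all protein-coding genes did), 17 had one over Naive (13.1%), and 35 had a library peak (37.3%). Their median density was 0 peaks per Mb in both comparisons, as it was over all protein-coding genes. Among the 24 members of 100 kb or more, 18 had a peak over BDNF (51.4% of all protein-coding genes of that length) and 12 over Naive (44%). Their median density was 4.4 peaks per Mb over BDNF and 1.2 over Naive, against 1.87 and 0 for all genes of that length. The density over the whole list was 5.07 peaks per Mb over BDNF and 3.95 over Naive, against 3.52 and 2.93 over all protein-coding genes. For genes of 100 kb or more it was 5.58 and 3.88 in the list, against 3.95 and 3.16. Single members of the list were denser than PRKCA: DGKE, a short diacylglycerol kinase gene, had 50.7 per Mb over BDNF (2 peaks) and 25.4 over Naive (1 peak), and GAP43 had 29.4 over Naive (3 peaks). DGKE, GAP43 and PARD3 fall outside the rule for named genes and were chosen after their values were seen.

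Upstream of PKC, phospholipases C release diacylglycerol, and 4 of 12 had a peak over BDNF and 2 of 12 over Naive, to be read, like the counts that follow, against 14.7% and 13.1% of all protein-coding genes and 51.4% and 44% of those of 100 kb or more. PLCB1, the phospholipase C β1 gene, had 5 and 3 peaks, and PLCB4 4 and 1. Diacylglycerol kinases remove the lipid, and 5 of 10 had a peak over BDNF and 4 of 10 over Naive. The brain-expressed DGKB had 8 and 5 peaks, with q of 0.0599 at best over BDNF in the authors' deposited table, and DGKI 2 and 4. The inositol trisphosphate receptor gene ITPR2, for the calcium channel that the other product of phospholipase C opens, had 6 and 5. UNC13C, a diacylglycerol-binding protein of the presynapse, had 3 and 2, and the polarity gene PARD3, tied with it over BDNF, also had 3 and 2. CHN2, which encodes the diacylglycerol-binding β-chimaerin, held the only pathway peak at q of 0.05 or less. It lay at 29483424 to 29483621 of chromosome 7, and had 17 fragments. The authors' deposited table over BDNF lists it at 3.91-fold with q = 0.0477. It overlapped a peak of 0 BDNF+Dox libraries. GAP43, for a growth-cone protein that PKC phosphorylates, had 1 and 3 peaks, tied with PLCB1 over Naive, and its smallest q over Naive in the authors' deposited table, 0.0593, was below that of any PKC peak. Substrates had a peak in 4 of 9 genes in each comparison, and anchors and partners in 1 of 11.

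Across the 9 libraries, the gene whose counts were most like those of PRKCA, among 603 genes with 10 or more library peaks, was PRKCE (Pearson's r = 0.802). PSD3 (0.8) and OSBPL3 (0.788) came next. For PRKCE the closest were PRKCA, the α-catenin gene CTNNA2 (0.733) and the neuregulin gene NRG1 (0.691). These are correlations of small counts that share the Input and the peak numbers of the libraries. They are the highest among 603 genes, and the same counts entered the choice of the family, so no shared pattern is read from them. Without BDNF+Dox replicate 3, r over the 8 libraries left was 0.572 between PRKCA and PRKCE, 0.366 for PSD3, 0.197 for OSBPL3, 0.413 for CTNNA2 and 0.635 for NRG1. These genes had been picked with that replicate included.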

How the data were processed

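The submitters' processing notes name cutadapt 1.1, Trimmomatic 0.32, Bowtie and the build GRCh38, without roles or settings. Per the file headers, peaks were called with MACS2 2.2.7.1 at p of 0.01, per library against Input, and from 1 merged file per group (narrow, and broad with a cutoff of 0.01), keeping 1 read per position. The deposited files give peak length in bp, pileup signal, −log10 p-value, −log10 q-value and fold enrichment (a ratio over local background). The headers say that q-values would not be calculated, but the column holds values, used as given.

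Peaks were joined to RefSeq GRCh38.p14 spans with Python 3.11.15, pandas 2.3.3 and scipy 1.17.1. The counting was tested on simulated data. Fragments per peak were the pileup divided by the header's read scaling. Local background was (pileup + 1) / fold − 1, with the caller's pseudocount of 1. No test was run: an exact permutation test of 3 libraries against 3 cannot go below 0.1, and the members and lists were chosen with earlier results of these data known. Named were the 8 members with their strongest merged peak, the 5 pathway genes with most merged peaks in each comparison (ties by library peaks) and any with q of 0.05 or less, and the 3 genes most correlated with each member of 10 or more library peaks. Genome sequence under the peaks was not used here.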

Additional observations from a re-analysis of the deposited data

How the results depend on the processing

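No paired analysis was possible because the values come from no test: the same counts entered the choice of the genes. The replicate numbers are also not stated to mark a shared culture or day.

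At −log10 p of 3 or more, library peaks in the 8 PKC genes averaged 2 per Naive library (3.67 as reported). They averaged 3 per BDNF library (3.67 as reported) and 3.67 per BDNF+Dox library (5.33 as reported). PKC peaks over BDNF then numbered 7, where 16 were reported (PRKCA 4 of 8, PRKCE 2 of 6). At −log10 p of 5 or more, the average was 0.667 per BDNF library and 0.333 per library of either other group, and merged peaks numbered 2 over BDNF and 5 over Naive. With 4536 peaks kept in every library the averages were 2 for Naive, 3 for BDNF and 3.67 for BDNF+Dox. The broad lists held 35 over BDNF and 44 over Naive. Leaving out 1 replicate gave averages of 3 to 4 for Naive and for BDNF libraries and 2.5 to 7 for BDNF+Dox, the lowest without replicate 3. PKC regions shared by 2 or more libraries numbered 0 with 10 kb on each side; the other alternatives can only remove peaks or overlaps, so their 0 says nothing more. The share of all protein-coding genes with a merged peak was 12% over BDNF and 10.5% over Naive at −log10 p of 3 or more, and 2.7% and 2.3% at 5 or more. It was 14.1% and 12.4% for gene spans alone and 17.9% and 15.9% with 10 kb on each side. Of 91 values recomputed, 62 stayed within the replicate spread, their interval or 1.5 times the reported count. This tally is no measure of stability, since it includes the shared-region zeros that could not change. It also includes BDNF+Dox averages judged by an SD of 4.93, so that 2.5 without replicate 3 counted as unmoved from 5.33. The cause was not tested where values moved, beyond the smaller lists that stricter thresholds leave. Peaks of 5 to 17 fragments limit every position named, and no interval of a group difference was computed.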
